A study of Mus musculus with 45 samples.

Results

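The amino acid transporter genes followed here through lymphocytes of an immunized lymph node were Slc7a5, Slc3a2, Slc1a5, Slc38a1, Slc38a2, Slc7a1, Slc7a6, Slc7a11, Slc1a4 and Slc43a1. They were chosen by symbol as transporters that feed the growth kinase complex mTORC1 and protein synthesis, and all 10 were present among the 55450 genes of the deposited table. RNA-sequencing covered 45 samples in 8 groups, 4 sorted populations from WT mice and from mice without sphingosine-1-phosphate receptor 4 (S1PR4-/-). The mutants carried the S1pr4tm1Dgen allele, backcrossed to C57/BL6, the controls were WT littermates, and both sexes were used at 8 to 12 weeks of age. Every mouse, WT or S1PR4-/-, was immunized in the hind footpad with 20 µL of an incomplete Freund's adjuvant emulsion holding 50 µg of ovalbumin and 5 µg of lipopolysaccharide, and the draining popliteal nodes were taken. Follicular helper T cells (Tfh, TCRβ+ CD4+ PD1+ CXCR5+) and non-Tfh CD4+ T cells (PD1- CXCR5-) were sorted on day 6, with 6 WT and 6 S1PR4-/- samples of each. Germinal center (GC) B cells (B220+ GL7+ Fas+; 6 WT and 6 S1PR4-/- samples) and non-GC B cells (GL7- Fas-; 5 WT and 4 S1PR4-/- samples) were sorted on day 9. The deletion was germline and not limited to the sorted cells, and day and lineage cannot be told apart wherever B cells are set against T cells.

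Lymphocytes that divide must bring in more amino acids than they can make, and they do so through a small set of membrane carriers. Slc7a5 (LAT1) imports leucine and other large neutral amino acids in exchange for an amino acid from inside, and it reaches the membrane only when bound to the heavy chain Slc3a2 (CD98). Glutamine and small neutral amino acids enter through Slc1a5 (ASCT2) and the sodium-coupled carriers Slc38a1 (SNAT1) and Slc38a2 (SNAT2), and the imported leucine and arginine are sensed by mTORC1. When amino acids run short the transcription factor ATF4 is made, and several of the carrier genes are among its known targets.

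Libraries held between 26299429 and 45548215 counts. S1pr4 had 505 to 6305 counts in the WT samples and 0 to 40 in the S1PR4-/- samples, as the labels give it. B cell markers summed to 8007 to 17343 normalised counts (CPM, counts in proportion to the TMM-scaled library total) in the B cell samples and 59.0 to 492 CPM in the T cell samples, and T cell markers to 9492 to 13097 CPM in the T cell samples and 208 to 360 CPM in the B cell samples. The 20 genes fixed as proliferation markers summed to 5156 to 9957 CPM in Tfh and GC B cells against 653 to 1987 CPM in non-Tfh and non-GC B cells. The sorted states matched their labels, with 2237 to 3401 CPM of Tfh markers in Tfh against 205 to 470 CPM in non-Tfh cells, and 1184 to 2069 CPM of GC markers in GC B against 124 to 182 CPM in non-GC B cells. S1PR4-/- GC B sample 3 stood apart with 17901 CPM of plasma cell markers, where the other 11 GC B samples held 2096 to 8982 CPM, and S1PR4-/- Tfh sample 6 with 541 CPM of myeloid markers, where the other 11 Tfh samples held 77.0 to 154 CPM. In these bulk samples a lower share of cells that express a gene and less of its RNA per cell cannot be told apart.

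The stretch around the RefSeq start is shown for 4 transporters, because it holds the C/EBP-ATF response element in Slc1a4, which was called in GC B cells, and in Slc7a11, which was hardly detected, holds an E-box in Slc43a1, which was called in both lineages, and holds neither in Slc3a2, which was called in neither lineage between GC and non-GC cells. RefSeq windows of build GRCm38.p6 (mm10), 250 bases before to 50 bases after the annotated start, matched 7 of the 10 members. No window was matched for Slc7a5, Slc1a5 and Slc38a1. The RefSeq start of Slc1a4 is the 5′ end of its GENCODE M21 gene and that of Slc7a11 lies 1 base inside, but that of Slc43a1 lies 1473 bases and that of Slc3a2 9472 bases inside the GENCODE M21 gene, so that their windows do not show the outermost start. Each stretch below runs 5′ to 3′ on the strand of the gene, from 150 bases before the start to 10 bases after it, and capitals mark TGATGNAA, the C/EBP-ATF response element, or CACGTG, the E-box, on either strand. The stretches lie at chr11:20332704-20332863 on the minus strand for Slc1a4, chr3:50443604-50443763 on the minus strand for Slc7a11, chr2:84840173-84840332 on the plus strand for Slc43a1 and chr19:8713888-8714047 on the minus strand for Slc3a2.
Slc1a4: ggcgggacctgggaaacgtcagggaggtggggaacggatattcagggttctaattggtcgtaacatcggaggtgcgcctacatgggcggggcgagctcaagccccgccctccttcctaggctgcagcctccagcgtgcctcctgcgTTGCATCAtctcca
Slc7a11: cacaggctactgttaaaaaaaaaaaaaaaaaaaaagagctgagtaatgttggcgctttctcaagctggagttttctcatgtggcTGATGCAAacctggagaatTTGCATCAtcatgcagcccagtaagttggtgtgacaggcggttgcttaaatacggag
Slc43a1: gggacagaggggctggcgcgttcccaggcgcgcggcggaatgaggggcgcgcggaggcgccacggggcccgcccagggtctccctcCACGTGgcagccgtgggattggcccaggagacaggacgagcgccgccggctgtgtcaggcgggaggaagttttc
Slc3a2: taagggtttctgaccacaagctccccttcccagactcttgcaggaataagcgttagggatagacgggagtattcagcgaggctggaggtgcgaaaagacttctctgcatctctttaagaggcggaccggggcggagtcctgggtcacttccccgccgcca
TGATGNAA was found once in the window of Slc1a4, from 4 bases before the start, and in 2 places in the window of Slc7a11, from 66 and 47 bases before it. CACGTG was found once, in the window of Slc43a1, from 64 bases before the start. The windows of Slc3a2, Slc38a2, Slc7a1 and Slc7a6 held neither. Of these, Slc7a1 and Slc7a6 were called higher in GC B cells of both genotypes, so that calls were found with and without a match. Of all 32851 windows of the same 300 bases, 3.97% held TGATGNAA and 7.15% held CACGTG, and no member's window held both. A match describes the letters only.

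Per kb of annotated exon the glutamine carrier Slc1a5 was the most abundant of the 10 in every group, and its group mean lay between 319 CPM in WT Tfh cells and 548 CPM in S1PR4-/- non-GC B cells. Over the 8 group means, Slc1a5 stood at 76.5 to 131 CPM per kb, the heavy chain Slc3a2 at 42.1 to 51.1, Slc7a5 at 8.31 to 38.7, Slc38a2 at 9.88 to 23.8, Slc38a1 at 6.37 to 12.6 and Slc7a6 at 5.41 to 10.8 CPM per kb. The length joins all annotated exons of a gene, 17236 bases for Slc38a1 and 3708 for Slc7a5, and the order between genes depends on it. Without the length, the group means were 110 to 218 CPM for Slc38a1 and 30.8 to 144 CPM for Slc7a5. The arginine and lysine carrier Slc7a1 (1.56 to 3.66 CPM per kb), the alanine, serine and cysteine carrier Slc1a4 (0.270 to 1.76 CPM per kb) and Slc43a1 (LAT3, which carries branched-chain amino acids without a heavy chain; 0.213 to 2.32 CPM per kb) were lowest among those that could be tested. Slc7a11, the light chain of the cystine and glutamate exchanger, had 0 to 13 counts in the 45 samples and did not pass the filter on low counts in any comparison. All 6 WT non-Tfh samples had 0 counts of Slc7a11, which allows up to 3 counts per library, or 0.0803 to 0.0971 CPM, for counting error only. The other 9 members were tested in every comparison.

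**Figure D1:**
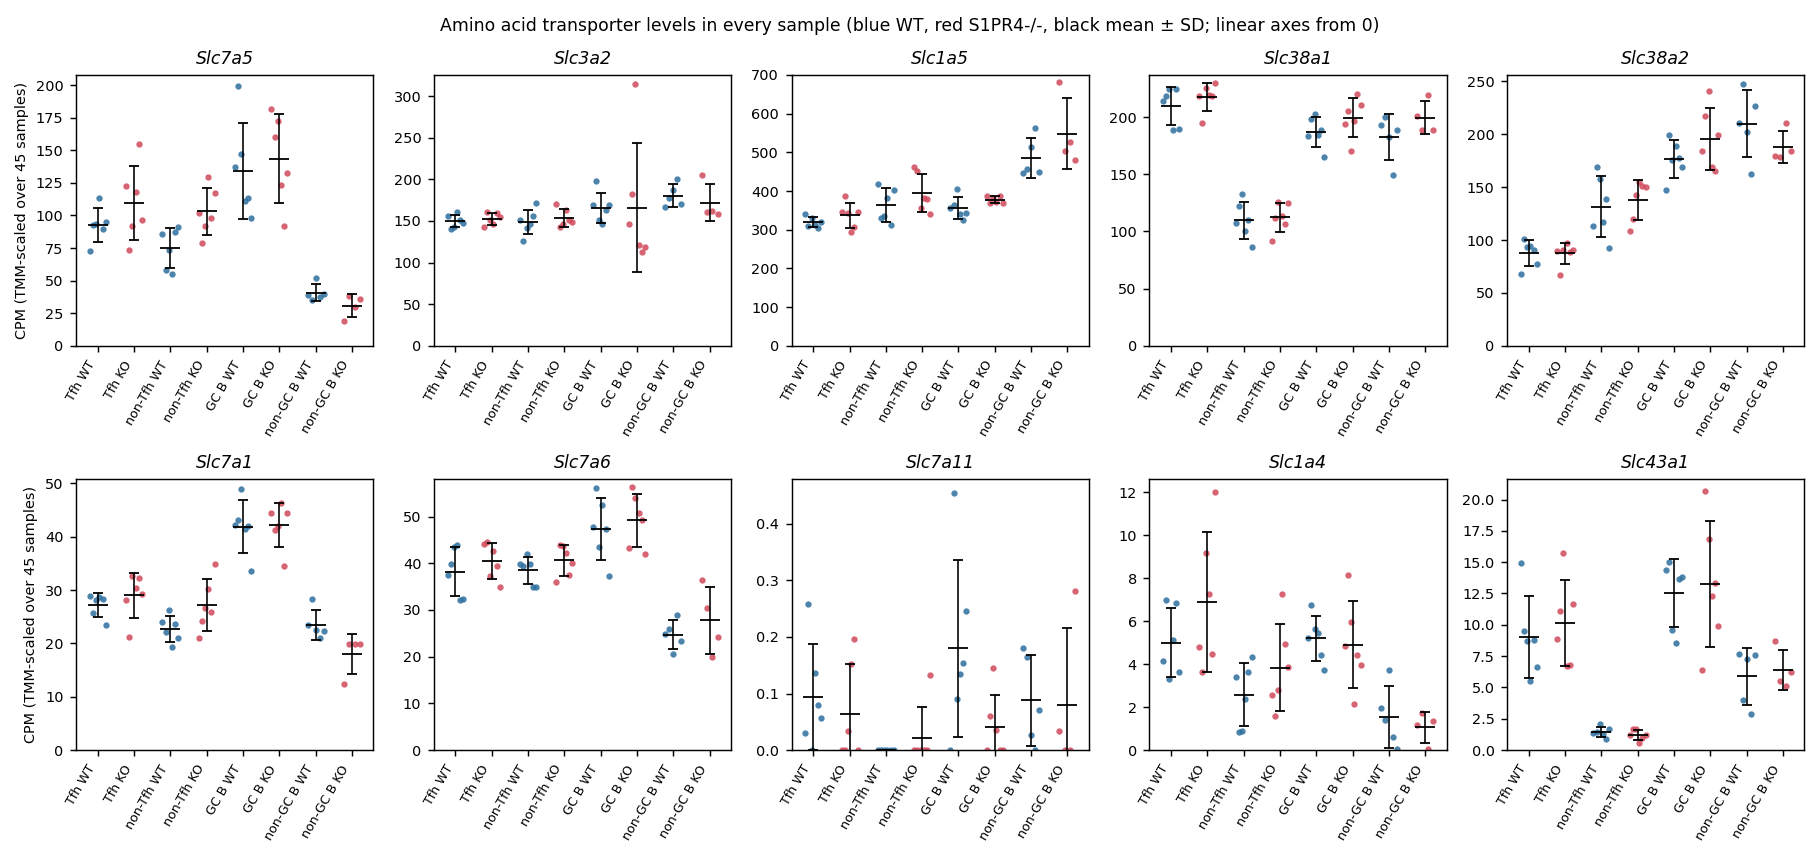
Level of each of the 10 transporters in every sample, in CPM scaled over the 45 samples, on linear axes from 0. Points are samples (blue WT, red S1PR4-/-) and black bars the group mean and SD. Slc7a5, Slc7a1 and Slc7a6 are highest in GC B cells, Slc38a1 and Slc43a1 are lowest in non-Tfh cells, and Slc3a2 lies between 113 and 205 CPM in every sample but 1.

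In GC B cells, 5 of the 9 tested transporters were higher than in non-GC B cells of WT mice and none was lower by the call rule, an adjusted p under 0.05 in edgeR's quasi-likelihood test with a fold change over 1.5. Of all 13324 genes tested, 47.8% were called, 24.8% higher and 23.1% lower. The 5 were Slc7a5, Slc7a6, Slc7a1, Slc1a4 and Slc43a1, and the same 5 were called higher in the S1PR4-/- mice, where 48.2% of 13484 genes were called, 25.3% higher and 22.9% lower. The median log2 fold change over the 9 members was 0.90 in WT and 0.89 in S1PR4-/- mice. Over all genes tested it was 0.00 in WT and 0.03 in S1PR4-/- mice.

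Slc7a5 (chr8:121881150-121907694, minus strand) was highest of its 8 groups in GC B cells. The lowest, median and highest of the 6 WT GC B samples were 97.9, 125 and 199 CPM. The 5 WT non-GC B samples had 38.7, 35.4, 51.7, 37.4 and 40.0 CPM, so that the groups did not overlap and the difference on the log2 scale was 1.79 ± 0.18 (SE, adjusted p = 2.45e-06). The 6 S1PR4-/- GC B samples ran from 91.9 through a median of 146 to 181 CPM. The 4 S1PR4-/- non-GC B samples had 19.0, 38.2, 29.8 and 36.3 CPM, again without overlap, at a log2 difference of 2.28 ± 0.24 (adjusted p = 8.22e-06). Slc7a5 overlaps the protein-coding gene model Gm20388 on the other strand in GENCODE M21, and while the libraries were stranded, whether the counting used strand is not given in the sources used here.

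Another exchanger light chain that pairs with the heavy chain, Slc7a6 (y+LAT2; chr8:106168857-106198706, plus strand), rose as well. It had 37.3, 47.5 and 56.1 CPM as lowest, median and highest WT GC B values, and 24.9, 25.9, 20.5, 29.0 and 23.3 CPM in the WT non-GC B samples. The groups lay apart at a log2 difference of 1.01 ± 0.12 (adjusted p = 9.63e-06), and in S1PR4-/- mice at 0.89 ± 0.16 (adjusted p = 0.00051). The heavy chain Slc3a2 itself (chr19:8706882-8723369, minus strand) was not called in either genotype. WT GC B samples had 146, 166 and 198 CPM as lowest, median and highest, and WT non-GC B samples 166, 178, 187, 201 and 171 CPM. These ranges overlapped and the log2 difference was -0.06 ± 0.09 (adjusted p = 0.579). In S1PR4-/- mice it was 0.01 ± 0.26 (adjusted p = 0.986), with 315 CPM of Slc3a2 in S1PR4-/- GC B sample 3 where the other 5 had 113 to 182 CPM. Without that sample it was -0.28 ± 0.15 (adjusted p = 0.127). Without samples 2 and 3, the 2 S1PR4-/- GC B samples highest in plasma cell markers, it was -0.39 ± 0.11 (adjusted p = 0.0128), under a fold of 1.5, a choice made after the data were seen.

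**Figure D2:**
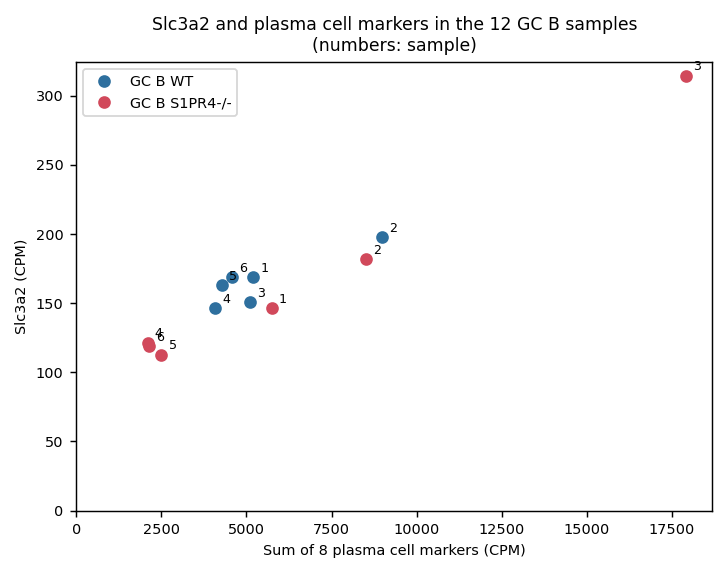
Slc3a2 in CPM against the sum of 8 plasma cell markers in CPM for the 12 GC B samples (blue WT, red S1PR4-/-, with sample numbers). S1PR4-/- sample 3 is highest on both axes at 315 and 17901 CPM, and S1PR4-/- samples 4, 5 and 6 are lowest on both, at 113 to 121 and 2096 to 2502 CPM.

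Among the WT GC B samples too, the one highest in these markers, sample 2 with 8982 CPM, was highest in Slc3a2, at 198 CPM. Plasma cells secrete antibody, and among the 8 markers Jchain was the most abundant in GC B samples. The markers moved with the GC state as a whole, with 7 of 8 called higher in WT GC B than in non-GC B cells (sums of 4088 to 8982 against 554 to 891 CPM) and 6 of 8 in S1PR4-/- mice (2096 to 17901 against 601 to 683 CPM). WT sample 2 was also the highest WT GC B sample in Slc7a5. Without it the log2 difference of Slc7a5 between WT GC B and non-GC B cells was 1.64 ± 0.14, and without S1PR4-/- GC B samples 2 and 3 that in S1PR4-/- mice was 2.17 ± 0.26. Between genotypes in GC B cells the log2 difference of Slc3a2 was 0.00 ± 0.23, and 0.01 ± 0.10 with the plasma cell marker score as a covariate, which was also added after the data were seen.

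The cationic carrier Slc7a1 (CAT1; chr5:148327410-148399904, minus strand) had 33.6, 42.1 and 49.0 CPM as lowest, median and highest in WT GC B cells. The WT non-GC B samples had 23.5, 28.3, 22.5, 21 and 22.4 CPM, with no overlap and a log2 difference of 0.90 ± 0.11 (adjusted p = 1.07e-05). S1PR4-/- GC B samples ran from 34.5 through a median of 43.3 to 46.4 CPM, above 12.5, 19.8, 19.9 and 19.9 CPM in the non-GC B samples, at a log2 difference of 1.29 ± 0.15 (adjusted p = 1.68e-05). The GC B samples were thus the higher ones in both genotypes.

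Slc1a4 (ASCT1; chr11:20302180-20332713, minus strand), the member whose start is crossed by the TGATGNAA element, was a scarce transcript that rose by 1.80 ± 0.62 on the log2 scale in WT (adjusted p = 0.02) and by 2.27 ± 0.68 in S1PR4-/- mice (adjusted p = 0.0121). WT GC B samples had 3.73, 5.35 and 6.74 CPM as lowest, median and highest. The WT non-GC B samples were uneven, with 1.95, 1.41, 3.73, 0.591 and 0.0355 CPM from 65, 43, 142, 18 and 1 counts, and the highest of them came level with the lowest GC B sample. The size of the Slc1a4 difference moved with the processing, to 2.44 without WT non-GC B sample 3 and to 2.61 in WT and 3.15 in S1PR4-/- mice with limma voom. Slc43a1 (chr2:84838850-84863594, plus strand) had 8.58, 13.7 and 15.0 CPM as lowest, median and highest in WT GC B cells and 7.64, 4.03, 7.30, 2.86 and 7.57 CPM in WT non-GC B cells. It was higher by 1.15 ± 0.27 in WT (adjusted p = 0.00211) and by 1.11 ± 0.30 in S1PR4-/- mice (adjusted p = 0.00678), where the ranges of 6.40 to 20.6 and 5.14 to 8.70 CPM overlapped.

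None of the glutamine carriers Slc1a5, Slc38a1 and Slc38a2 was called when GC B cells were set against non-GC B cells with TMM factors. Slc1a5 (chr7:16781340-16798274, plus strand) was lower in GC B cells, with 326, 349 and 406 CPM as lowest, median and highest in WT GC B cells and 447, 458, 514, 562 and 448 CPM in WT non-GC B cells. The groups did not overlap and the log2 difference of -0.38 ± 0.08 passed the threshold (adjusted p = 0.00143) but stayed under a fold of 1.5. In S1PR4-/- mice it was -0.48 ± 0.09 (adjusted p = 0.000892), with 368 to 387 CPM against 682, 503, 527 and 481 CPM, and without a normalization factor it was called, at -0.59 ± 0.11 (adjusted p = 0.00046). Slc38a1 differed by 0.10 ± 0.08 in WT and 0.06 ± 0.08 in S1PR4-/- mice, and Slc38a2 by -0.19 ± 0.11 and 0.12 ± 0.11, with adjusted p between 0.135 and 0.522. In each genotype 5 of the 10 members had GC B samples apart from the non-GC B samples, where 43.1% of 16200 genes did in WT and 45.5% in S1PR4-/- mice. At the adjusted p alone Slc1a5 made a sixth member in each genotype, where 67.2% of genes passed in WT and 64.6% in S1PR4-/- mice.

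In Tfh cells it was the glutamine carrier Slc38a1 and the branched-chain carrier Slc43a1 that rose. Of the 9 tested members, 3 were called higher than in non-Tfh cells of WT mice and none lower, where 43.2% of 13481 genes were called, 22.8% higher and 20.4% lower. In S1PR4-/- mice 2 were called higher and 1 lower, where 43.4% of 13390 genes were called, 22.3% higher and 21.1% lower. Slc38a1 and Slc43a1 were called in both genotypes. The ranges lay apart for 2 members in WT and for 3 in S1PR4-/- mice, where 42.0% and 41.7% of 16200 genes lay apart. The median log2 fold change over the 9 members was 0.27 in WT and 0.10 in S1PR4-/- mice, and over all genes tested 0.00 and 0.01. At the adjusted p alone, with no fold asked, 6 members passed in WT and 4 in S1PR4-/- mice, where 68.7% and 70.7% of genes did. Markers of other cells moved with the Tfh state. Of the 12 B cell markers 11 were called higher in WT Tfh than in non-Tfh cells, with sums of 178 to 492 against 64.1 to 105 CPM and 8007 to 17343 CPM in the B cell samples, and so were 6 of 7 tested plasma cell markers (291 to 673 against 120 to 170 CPM) and 3 of 5 tested myeloid markers (95.3 to 154 against 62.7 to 108 CPM). In WT Tfh cells Cd22 alone averaged 179 CPM, where the median B cell sum was 339 CPM. Xbp1 alone averaged 236 CPM there, where the median plasma cell sum was 356 CPM. No B cell or plasma cell marker was at 0 in all samples of either group, and the part of these markers in the Tfh values was not tested.

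Slc38a1 (chr15:96571418-96642913, minus strand), a sodium-coupled importer of glutamine, had 189, 216 and 225 CPM as lowest, median and highest in WT Tfh cells and 86.0, 109 and 132 CPM in WT non-Tfh cells. The groups lay apart, at a log2 difference of 0.94 ± 0.09 (adjusted p = 4.83e-07). S1PR4-/- Tfh cells had 195 to 230 CPM and non-Tfh cells 91.7 to 126 CPM, and the difference was 0.97 ± 0.08 (adjusted p = 5.91e-08). Its close relative Slc38a2 (chr15:96687392-96699730, minus strand) was lower in Tfh cells. WT Tfh samples had 68.0, 91.7 and 101 CPM as lowest, median and highest, and WT non-Tfh samples 92.3, 128 and 169 CPM. The log2 difference of -0.58 ± 0.14 (adjusted p = 0.00166) fell just short of a fold of 1.5 and was past it, at -0.59 to -0.68, without any of WT Tfh samples 2 to 5 or WT non-Tfh samples 1, 4 and 6. In S1PR4-/- mice it was -0.65 ± 0.10 (adjusted p = 6.59e-05), past the fold, with 67.3 to 96.9 against 109 to 154 CPM and no overlap, although without S1PR4-/- Tfh sample 2 it was -0.58 and under the fold.

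Slc43a1 showed the widest change of any member in T cells. It had 5.53, 8.75 and 15.0 CPM as lowest, median and highest in WT Tfh cells and 0.907, 1.37 and 2.07 CPM in WT non-Tfh cells. The log2 difference was 2.64 ± 0.26 (adjusted p = 3.65e-07), and in S1PR4-/- mice 3.06 ± 0.28 (adjusted p = 2.89e-07), without overlap in either genotype. Slc1a4 was higher in WT Tfh cells by 0.96 ± 0.38 (adjusted p = 0.0345, and 0.101 with all 8 groups in 1 fit), with overlapping ranges of 3.31 to 6.98 and 0.855 to 4.33 CPM, and the call was lost, at an adjusted p of 0.0511 to 0.0748, without any of WT Tfh samples 2, 4 and 5 or WT non-Tfh samples 2, 3 and 4. In S1PR4-/- mice its log2 difference of 0.85 ± 0.37 missed the threshold (adjusted p = 0.0506 in edgeR) and passed it with DESeq2 (0.0233), limma voom (0.0469) and RLE normalization (0.0498), and without any of S1PR4-/- Tfh samples 1, 2 and 5 or non-Tfh sample 4 (0.0119 to 0.0443). With all 8 groups in 1 edgeR fit the adjusted p was 0.147, and with a sample left out the log2 difference ran from 0.62 to 1.13. The highest S1PR4-/- Tfh value of Slc1a4, 12.0 CPM, was in sample 6, the one set apart by its myeloid markers.

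Of the transporters that rose in GC B cells, the light chains Slc7a5 and Slc7a6 and the cationic carrier Slc7a1 were not called in Tfh cells. Slc7a5 differed by 0.31 ± 0.13 in WT (adjusted p = 0.0509) and 0.10 ± 0.16 in S1PR4-/- mice (adjusted p = 0.578). Slc7a6 differed by -0.01 ± 0.09 and 0.01 ± 0.08, and the heavy chain Slc3a2 by 0.01 ± 0.07 and 0.00 ± 0.05. Slc7a1 was 0.27 ± 0.09 higher in WT (adjusted p = 0.0136, under a fold of 1.5) and Slc1a5 differed by -0.19 ± 0.07 (adjusted p = 0.0338, also under a fold of 1.5).

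**Figure D3:**
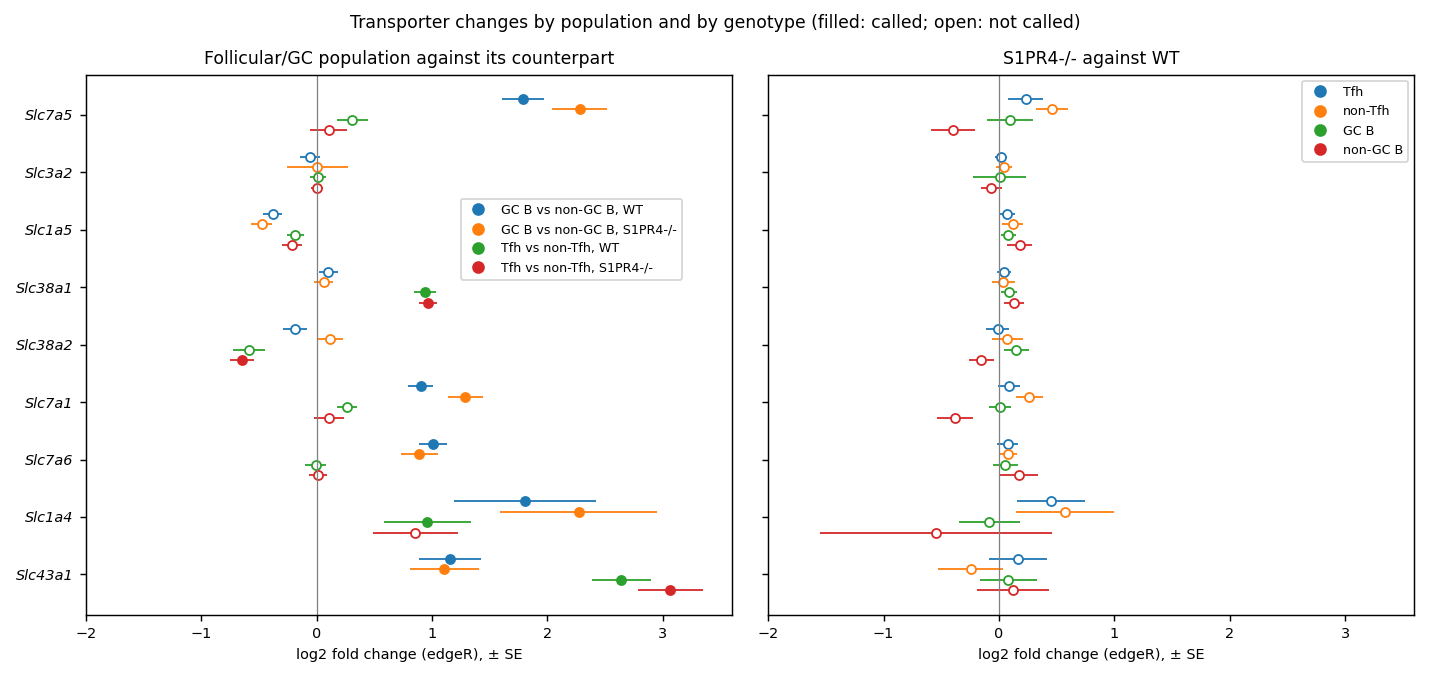
Log2 fold change (± SE) of the 9 tested transporters between each GC or Tfh population and its counterpart (left) and between S1PR4-/- and WT cells (right). Filled points were called at an adjusted p under 0.05 and a fold over 1.5, open points were not. The left panel holds 5 filled points for each B cell comparison and 3 for each T cell comparison, and the right panel holds none.

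Whether the change between GC and non-GC populations differed between B and T cells was tested directly, as the GC B minus non-GC B difference less the Tfh minus non-Tfh difference in WT mice. It differed for 5 of the 9 tested members at an adjusted p under 0.05, where 41.7% of 15101 genes did. The change was larger in B cells for Slc7a5 by 1.42 ± 0.23 (adjusted p = 2.91e-05), for Slc7a6 by 0.95 ± 0.15 (adjusted p = 2.13e-05) and for Slc7a1 by 0.57 ± 0.14 (adjusted p = 0.00166). It was smaller in B cells for Slc38a1, at -0.90 ± 0.13 (adjusted p = 4.98e-06), and for Slc43a1, at -1.55 ± 0.38 (adjusted p = 0.00192). For Slc1a4, which was called higher in both lineages in WT, the difference of 0.78 ± 0.73 was not past the threshold (adjusted p = 0.423). Slc3a2, Slc1a5 and Slc38a2 were not past it either, at -0.13 ± 0.11, -0.26 ± 0.11 and 0.33 ± 0.19. The adjusted p of Slc1a5 was 0.063 in edgeR, 0.0491 with limma voom, and 0.0288 to 0.0493 without any of WT non-Tfh samples 1 and 6, GC B sample 3 and non-GC B samples 1 and 5.

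**Figure D4:**
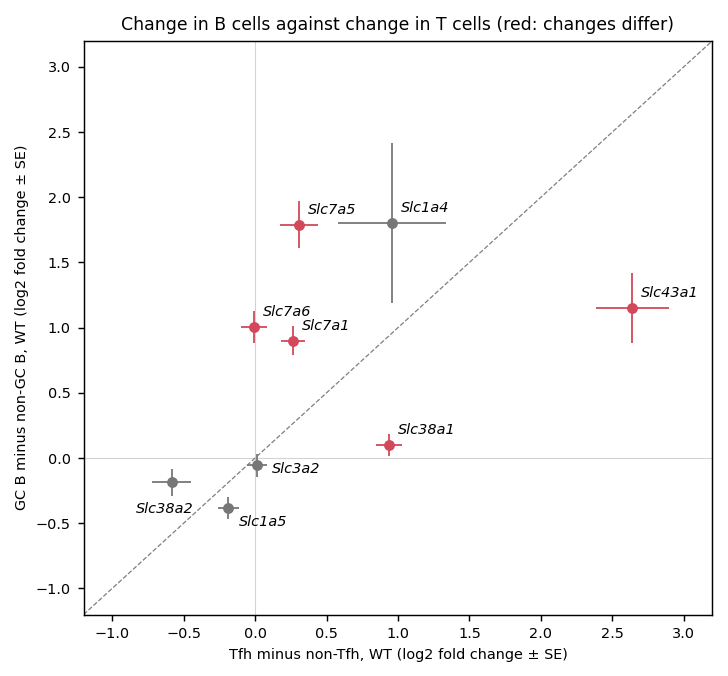
Log2 fold change (± SE) of GC B minus non-GC B cells against Tfh minus non-Tfh cells in WT mice for the 9 tested transporters. The dashed line marks equal change and red marks members whose changes differed between lineages. Slc7a5, Slc7a6 and Slc7a1 lie above the line, and Slc38a1 and Slc43a1 below it.

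The lineages were also set side by side, within the GC populations and outside them. Between WT GC B and Tfh cells, 2 of the 9 tested members were called, both higher in GC B cells, where 44.3% of 13719 genes were called, 20.1% higher and 24.2% lower. They were Slc38a2, by 1.02 ± 0.10 (adjusted p = 6.27e-07), and Slc7a1, by 0.63 ± 0.09 (adjusted p = 2.77e-05), which was under a fold of 1.5 without WT GC B sample 3 and without a normalization factor. Slc7a5 was higher in GC B cells by 0.54 ± 0.16 (adjusted p = 0.00743), under a fold of 1.5, and past it at 0.59 to 0.62 without Tfh sample 4 or any of GC B samples 4, 5 and 6. Between WT non-GC B and non-Tfh cells, 4 were called, where 38.9% of 13669 genes were called, 19.7% higher and 19.1% lower. Slc43a1 (2.09 ± 0.31, adjusted p = 5.2e-05), Slc38a1 (0.80 ± 0.11, adjusted p = 2.36e-05) and Slc38a2 (0.74 ± 0.15, adjusted p = 0.000765) were higher in non-GC B cells, and Slc7a5 was lower, at -0.82 ± 0.15 (adjusted p = 0.000306). Slc7a6, at -0.58 ± 0.10 (adjusted p = 0.000138), lay just under the fold threshold and was past it, at -0.59 to -0.72, under every other normalization, filter and tool tried. At the adjusted p alone 6 members passed between the GC populations, where 67.8% of genes did, and 7 between the others, where 57.3% did.

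The members were ordered by group mean over the 8 groups in 1 fit, and a step is a difference between neighbours in that order. Groups further apart can differ without a step between them. For Slc7a5 the only neighbours in the order that differed were WT non-Tfh cells (75.1 CPM) and WT non-GC B cells (40.6 CPM; adjusted p = 0.000119), while the 6 groups above that step, from 75.1 to 144 CPM, did not differ from their neighbours. Slc38a1, Slc43a1, Slc7a6 and Slc1a5 each had a single step too. For Slc38a1 it lay between WT non-GC B cells at 183 CPM and S1PR4-/- non-Tfh cells at 112 CPM (adjusted p = 2.59e-09), and for Slc43a1 between WT non-GC B cells at 5.88 CPM and WT non-Tfh cells at 1.44 CPM (adjusted p = 1.46e-07). That of Slc7a6 lay between WT Tfh cells at 38.2 CPM and S1PR4-/- non-GC B cells at 27.8 CPM (adjusted p = 0.00113), and that of Slc1a5 between WT non-GC B cells at 486 CPM and S1PR4-/- non-Tfh cells at 395 CPM (adjusted p = 0.00291). Slc7a1 stepped down from WT GC B cells at 41.9 CPM to S1PR4-/- Tfh cells at 29.0 CPM (adjusted p = 9.97e-05) and again to S1PR4-/- non-GC B cells at 18 CPM (adjusted p = 0.0274). Slc38a2 stepped down between WT GC B cells at 176 CPM and S1PR4-/- non-Tfh cells at 138 CPM (adjusted p = 0.00827) and between WT non-Tfh cells at 131 CPM and WT Tfh cells at 87.5 CPM (adjusted p = 5.92e-05). No neighbours differed for Slc3a2, which ran from 149 to 180 CPM, or for Slc1a4. In the same edgeR fit, groups on 1 side of a step also differed. WT GC B cells were above WT non-Tfh cells for Slc7a5 (adjusted p = 6.97e-05) and above WT Tfh cells for Slc7a6 (adjusted p = 0.013). They were above WT non-GC B cells for Slc43a1 (adjusted p = 0.00119) and, with no step, for Slc1a4 (adjusted p = 0.00658).

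The question the study put to these cells was what loss of S1PR4 changed in each population, and none of the 9 tested transporters was called between S1PR4-/- and WT cells in any of the 4. Of all genes tested, 0.496% were called in Tfh cells, 0.114% in non-Tfh cells, 0.0612% in GC B cells and 0.0537% in non-GC B cells. With edgeR at an unadjusted p under 0.05 the count was 0 of 9 in Tfh cells, 2 in non-Tfh cells, 0 in GC B cells and 1 in non-GC B cells, and DESeq2 and limma voom also called 0 in each population. The median log2 difference over the 9 members was 0.08 in Tfh, 0.08 in non-Tfh and 0.08 in GC B cells and -0.07 in non-GC B cells, and over all genes tested it was between -0.01 and 0.01. The labels name no mouse, so that the p-values measure the spread between these samples only.

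The smallest unadjusted p of any member between the genotypes was that of Slc7a5 in non-Tfh cells. In non-Tfh cells WT samples had 54.8, 79.6 and 91.4 CPM as lowest, median and highest and S1PR4-/- samples 79.2, 100 and 130 CPM, which overlapped, at a log2 difference of 0.46 ± 0.14 (unadjusted p = 0.00513, adjusted p = 0.217 in edgeR). In non-GC B cells the difference was -0.40 ± 0.19 (unadjusted p = 0.0601, adjusted p = 0.981). In Tfh cells it was 0.23 ± 0.15 and in GC B cells 0.09 ± 0.20, with adjusted p of 0.427 and 0.996. By Xist and Ddx3y the T cell samples were 1 male and 5 female in WT and 4 male and 2 female in S1PR4-/- mice, so that sex moved with genotype there. With sex as a factor the log2 difference in non-Tfh cells was 0.53 ± 0.16 (adjusted p = 0.464), and with the B cell marker score as a covariate 0.65 ± 0.18 (adjusted p = 0.341). In females alone Slc7a5 averaged 75.5 CPM over 5 WT and 114 CPM over 2 S1PR4-/- non-Tfh samples, and in males it was 73.3 CPM in the WT sample and averaged 97.6 CPM over 4 S1PR4-/- samples. Proliferation markers summed to 978 to 1468 CPM in WT and 1084 to 1987 CPM in S1PR4-/- non-Tfh samples, and B cell markers to 64.1 to 105 and 59.0 to 72.1 CPM. Of these B cell sums Cd72 alone averaged 51.7 and 52.7 CPM. Over the 7 B cell markers tested in non-Tfh cells the median log2 difference between genotypes was -2.36, with 1 above 0 and 0 called. Over the 12 tested in Tfh cells it was -2.20, with 1 above 0 and 1 called lower. The part of proliferation in the Slc7a5 values was not tested.

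For Slc7a1, the other member with an unadjusted p under 0.05, the log2 difference was 0.26 ± 0.12 in non-Tfh cells (unadjusted p = 0.039, adjusted p = 0.416) and -0.38 ± 0.16 in non-GC B cells (unadjusted p = 0.032, adjusted p = 0.981). In non-GC B cells it was the only member whose ranges lay apart, where 1.56% of 16200 genes lay apart, and S1PR4-/- sample 1 with 12.5 CPM was well under the other 3 at 19.8 to 19.9 CPM. Without that sample the log2 difference was -0.24. Slc3a2 in GC B cells differed by -0.29 ± 0.13 (adjusted p = 0.799) when S1PR4-/- sample 3, rich in plasma cell markers, was left out. No member's genotype difference itself differed between the T cell populations or between the B cell populations: with edgeR 0 of 9 passed in either lineage, where 0.0139% of 14401 genes passed in T cells and 0% of 14490 in B cells, DESeq2 and limma voom also gave 0, and at an unadjusted p under 0.05 the counts were 0 and 1 (Slc7a1 in B cells).

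Because the light chains need the heavy chain, their ratio was taken within each sample, as the summed CPM per kb of the 6 light chains that pair with Slc3a2 (Slc7a5, Slc7a6, Slc7a7, Slc7a8, Slc7a10 and Slc7a11) over that of Slc3a2. This measure was added after the levels had been seen and is given as a description, with no test. With the level of Slc3a2 close between groups and most of the light chain sum from Slc7a5, it is not independent of the Slc7a5 values above. The mean was 0.351 ± 0.034 (SD, n = 5) in WT non-GC B cells and 1.08 ± 0.17 (n = 6) in WT GC B cells, with 0.374, 0.312, 0.387, 0.319 and 0.361 against a lowest, median and highest of 0.817, 1.09 and 1.26. The groups did not overlap. S1PR4-/- mice gave 0.331 ± 0.080 (n = 4) and 1.24 ± 0.29 (n = 6), again apart. Slc7a5 supplied 71.1% of the light chain sum in WT GC B cells and 61.3% in WT non-GC B cells, on the mean CPM per kb.

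In T cells the ratio was 0.868 ± 0.097 in WT Tfh and 0.691 ± 0.064 in WT non-Tfh cells (n = 6 each), a difference of 0.176 that became 0.112 with Slc7a5 as the sole light chain, and 0.962 ± 0.185 and 0.857 ± 0.090 in S1PR4-/- mice. Between the genotypes, WT non-Tfh samples had 0.572, 0.707 and 0.758 as lowest, median and highest, and S1PR4-/- non-Tfh samples 0.759, 0.836 and 0.970. The lowest S1PR4-/- sample lay just above the highest WT sample, in the population where Slc7a5, which was not called, had its smallest unadjusted p between genotypes. Sex moved with genotype in these samples. The ratio averaged 0.684 over 5 WT and 0.890 over 2 S1PR4-/- females. In males it was 0.726 in the 1 WT sample and averaged 0.840 over 4 S1PR4-/- samples. In Tfh cells (0.868 and 0.962), GC B cells (1.08 and 1.24) and non-GC B cells (0.351 and 0.331) the ranges of the genotypes overlapped.

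**Figure D5:**
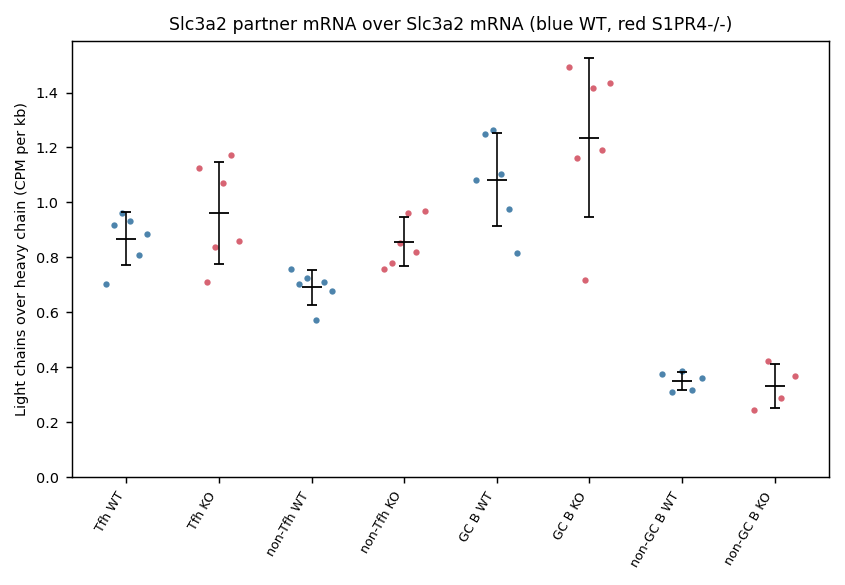
Summed CPM per kb of 6 light chains over CPM per kb of the heavy chain Slc3a2 in every sample, on a linear axis from 0 (blue WT, red S1PR4-/-, black mean and SD). The 9 non-GC B samples lie at 0.246 to 0.422, below all 36 others. The lowest S1PR4-/- non-Tfh sample, at 0.759, lies just above the highest WT non-Tfh sample, at 0.758.

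Other genes of amino acid supply were described from lists that were fixed with earlier results of these data known. Of 29 ATF4 target and amino acid response genes, 26 were tested in WT B cells, with 13 higher and 3 lower in GC B cells and a median of 0.85 on the log2 scale, where 24.8% of all genes tested were higher and 23.1% lower with a median of 0.00. The asparagine synthetase Asns rose from 1.04 to 33.3 CPM (log2 4.96 ± 0.62, adjusted p = 1.37e-05), the proline enzyme Pycr1 from 2.41 to 22.1 CPM (3.18 ± 0.56, adjusted p = 0.000252) and the glutathione-degrading Chac1 from 0.185 to 2.61 CPM (3.71 ± 0.90, adjusted p = 0.00274). In WT T cells 10 of 25 were higher and 3 lower in Tfh cells, where 22.8% of all genes were higher and 20.4% lower. There Asns rose from 1.33 to 17.7 CPM (3.72 ± 0.31, adjusted p = 6.74e-08), the alanine aminotransferase Gpt2 by 2.39 ± 0.44 and Stc2 by 4.05 ± 0.66. Slc7a5, Slc1a4 and Slc7a1 were higher in GC B cells as well, whereas Slc3a2 was not called and Slc7a11 was not tested. Slc38a2 was not called in WT GC B cells (-0.19 ± 0.11) and was lower in Tfh cells of both genotypes (-0.58 in WT and -0.65 in S1PR4-/- mice). Slc1a5 was lower in WT GC B cells (-0.38 ± 0.08), under a fold of 1.5.

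The aminoacyl-tRNA synthetases, which load amino acids onto tRNA, changed more in B cells. In the test of the GC shift between the lineages 18 of 23 rose more in B cells and 1 less, where 41.7% of all genes differed either way, and the median difference was 0.47 against -0.03 over all genes. In WT B cells 14 of 23 were higher and none lower in GC B cells, led by Yars (1.3 ± 0.14), Gars (1.14 ± 0.09) and Aars (1.13 ± 0.10), with a median of 0.66 over the list. In WT T cells 2 of 23 were called, both higher, Aars (1.08 ± 0.15) and Qars (0.85 ± 0.07), with a median of 0.03. The proliferation list gave 20 of 20 higher in both, so that division moved with the GC and Tfh state, and its part in the transporter changes was not tested. Its leading genes were Mki67 (8.22 ± 0.63), Bub1 (7.54 ± 0.42) and Ccna2 (7.36 ± 0.34) in B cells and Plk1 (4.83 ± 0.32), Cdk1 (4.64 ± 0.31) and Ccna2 (4.62 ± 0.41) in T cells.

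Of 31 genes of glutamine and glutathione metabolism, 9 of 26 tested were higher and 2 lower in WT GC B cells, and 12 of 29 were higher and 4 lower in WT Tfh cells, so that the share called was below the 47.8% of all genes in B cells and above the 43.2% in T cells. Beside Asns, the largest were the cysteine-making Cth (5.61 ± 0.79) and the heme oxygenase Hmox1 (4.08 ± 0.74) in B cells, and the sulfiredoxin Srxn1 (5.04 ± 0.49) and Hmox1 (4.00 ± 0.15) in T cells. Among 43 genes of mTORC1 and its amino acid sensing, 5 were higher and 9 lower in GC B cells and 6 higher and 7 lower in Tfh cells, a smaller share than that of all genes called in either lineage (47.8% and 43.2%). Sesn1, a sestrin that restrains mTORC1, fell from 385 to 104 CPM in GC B cells (-1.88 ± 0.33, adjusted p = 0.000278) and from 321 to 51.5 CPM in Tfh cells (-2.64 ± 0.12, adjusted p = 1.26e-10). Tbc1d7, a subunit of the TSC complex that restrains it as well, rose by 1.42 ± 0.16 and 1.48 ± 0.10. Rragd, a Rag GTPase, was 1.13 lower on the log2 scale in GC B cells (-1.13 ± 0.45, adjusted p = 0.0411), and Fnip2, a folliculin partner, was higher in Tfh cells (1.75 ± 0.39).

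Of 48 other amino acid transporter genes, 22 were tested in B cells with 5 higher and 5 lower in GC B cells, where 24.8% of all genes were higher and 23.1% lower. In T cells 24 were tested with 8 higher and 1 lower in Tfh cells, where 22.8% of all genes were higher and 20.4% lower. Over both directions the shares called were near or below those of all genes, and in T cells the calls leaned higher. The mitochondrial aspartate and glutamate carrier Slc25a13 rose in both, from 1.16 to 20.5 CPM in B cells (4.14 ± 0.36) and from 3.45 to 34.0 CPM in T cells (3.29 ± 0.14). The cationic carrier Slc7a3 (2.77 ± 0.60) and the amino acid carrier Slc36a4 (2.18 ± 0.50) were next in B cells. In T cells they were the light chain Slc7a10 (3.56 ± 0.40), another partner of Slc3a2, which rose from 0.44 to 5.24 CPM, and the histidine and peptide carrier Slc15a3 (2.49 ± 0.40). None of the genes on these 6 lists was called between S1PR4-/- and WT cells in any population with edgeR. At the adjusted p alone 3 passed in Tfh cells, where 1.41% of all genes did, and 1 in non-Tfh cells, where 0.235% did. They were Sesn1, lower in S1PR4-/- cells by -0.50 ± 0.09 in Tfh (adjusted p = 0.0274) and -0.56 ± 0.10 in non-Tfh cells (adjusted p = 0.0258), and the proliferation genes Mcm6 (0.37 ± 0.07, adjusted p = 0.0274) and Bub1 (0.43 ± 0.10, adjusted p = 0.0476), higher in S1PR4-/- Tfh cells. Mcm6 was named after its value was seen. As lists, the proliferation genes and synthetases leaned higher in S1PR4-/- T cells. Proliferation genes were above 0 in 20 of 20 (Tfh) and 19 of 20 (non-Tfh), at medians of 0.33 each. Synthetases were above 0 in 22 and 23 of 23, at 0.14 and 0.09, where all genes had -0.002 and 0.004. Medians of the other lists ran from -0.08 to 0.19 there. In non-GC B cells 9 of 20 and 15 of 23 were above 0. Sex moved with genotype in T cells, and its part in these lists was not tested.

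As a description over the 45 samples, which share their groups and so their differences between cell types, the genes whose log2 CPM followed each member most closely among 16200 were as follows. Slc7a5 was followed by Nme2, Pole2 and Cct6a (Pearson r = 0.94, 0.934 and 0.929), Slc7a1 by Ulbp1, Kpnb1 and Ptma (0.906, 0.9 and 0.891), and Slc7a6 by Eif3m, Slc39a11 and Psip1 (0.851, 0.847 and 0.836). Slc38a1 was followed by Gnptab, Plekhg3 and Tbl1xr1 (0.933, 0.918 and 0.917), Slc38a2 by Mef2a, Itpr3 and Maco1 (0.945, 0.942 and 0.934), and Slc43a1 by Ikzf3, Nsmaf and Uap1l1 (0.93, 0.924 and 0.923). Slc1a5 was followed by Atg16l2, Crtc2 and Top3b (0.855, 0.855 and 0.85), Slc1a4 by Serf1, Mfsd2a and Akap1 (0.823, 0.807 and 0.788), and Slc3a2 by Epcam, Ficd and Ccrl2 (0.782, 0.744 and 0.738). Within the family, Slc7a5 went with Slc7a1 (0.806), Slc7a6 (0.754) and Slc1a4 (0.708) and against Slc1a5 (-0.7), and its r with its own heavy chain Slc3a2 was -0.108. Slc38a1 went with Slc43a1 at 0.868. After the group means were taken out, Slc7a5 and Slc7a1 kept an r of 0.544, whereas Slc7a5 with Slc7a6 was at -0.0851 and Slc38a1 with Slc43a1 at 0.193. The r of Slc7a5 with Slc3a2 was then 0.307.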

How the data were processed

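Total RNA of the sorted cells was captured with oligo-dT beads, made into stranded libraries and sequenced on a NovaSeq. Adapters were removed with Cutadapt 2.10, alignment to mm10 used STAR 2.5.3 in two-pass mode, duplicates were marked with Picard, and the authors deposited expected counts per gene from RSEM 1.3.0, in which 8.83% of values were not whole. These were rounded here and tested for each comparison on its own groups with edgeR 4.0.16 (R 4.3.3), with filterByExpr, TMM factors, the quasi-likelihood test and Benjamini-Hochberg adjustment over all genes tested. A gene was called at an adjusted p under 0.05 and a fold over 1.5, and an interaction at the adjusted p alone. SE is of the log2 fold change. Levels are CPM scaled by TMM over the 45 samples, and per kb by the exon length in GENCODE M21 (55423 of 55450 symbols, while the study used another release). For list genes named with their change, such as Asns and Sesn1, the mean CPM was scaled by TMM within that comparison. Near-identical copies could share reads, which RSEM splits by estimate.

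The members and lists were chosen with earlier results of these data known. From each list the named genes were those called in WT GC B or Tfh cells that had the largest absolute log2 fold changes, up to 3, and averaged 1 CPM or more, and for likeness the 3 genes with the highest r. Alternatives were RLE factors, no factor, no filter, DESeq2 1.42.0, limma voom 3.58.1, all 8 groups in 1 fit, marker and sex covariates, a block of replicate number and each sample left out. The scripts were tested on simulated data. The labels do not say whether same-numbered samples came from 1 mouse, and the fits did not pair them.

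A share or level from few counts is limited by depth, and the floor of 3 counts covers counting error only.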

Additional observations from a re-analysis of the deposited data

Results flagged for a closer look

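In 88 sets of values, the 10 genes and the chain ratio in each of 8 groups, 8 held a sample far from the others by Dixon's test. For independent sets with a normal spread, chance gives this in about 1 of 20. That rate is no measure here, because the chain ratio is built from the members and the Slc7a11 sets hold few counts. Slc7a5 was 51.7 CPM in WT non-GC B sample 3, where the others had 35.4 to 40.0 CPM. Slc3a2 was 315 CPM in S1PR4-/- GC B sample 3 (others 113 to 182 CPM) and 205 CPM in S1PR4-/- non-GC B sample 1 (others 159 to 162 CPM). That same non-GC B sample was low for Slc7a1, at 12.5 CPM where the others had 19.8 to 19.9 CPM. S1PR4-/- Tfh sample 2 was low for both SNAT carriers, with 195 CPM of Slc38a1 (others 218 to 230 CPM) and 67.3 CPM of Slc38a2 (others 88.7 to 96.9 CPM). For Slc7a11, whose values rest on a few counts, S1PR4-/- non-Tfh sample 6 had 0.132 CPM (the others 0) and S1PR4-/- non-GC B sample 4 had 0.282 CPM (the others 0 to 0.0338 CPM).

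The change between the GC population and its counterpart differed between B and T cells of WT mice for 5 members by the interaction test in edgeR, at log2 differences of 1.42 for Slc7a5, 0.95 for Slc7a6, 0.57 for Slc7a1, -0.90 for Slc38a1 and -1.55 for Slc43a1.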

How the results depend on the processing

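The 5 members called higher in GC B cells were called with every tool, normalization and filter and with each sample left out, the replicate block in S1PR4-/- mice excepted. None of the 9 tested members was called between the genotypes under any alternative or with any sample left out. Of 558 log2 fold changes under the other alternatives, 504 kept their direction and side of the threshold, and so did 827 of 897 with a sample left out. These came from 70 member differences, with only some members between genotypes and none in the genotype by population interactions. The cause of the changes was not tested.

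Genes called between genotypes in Tfh cells (67) became 190 at the adjusted p alone, 184 with DESeq2, 153 with all 8 groups in 1 fit, 12 with the B cell marker covariate, 157 with sex, and 15 to 117 with a sample left out (lowest without WT sample 2 or 5 or S1PR4-/- sample 1, highest without S1PR4-/- sample 3). In non-Tfh cells (15) they became 31 at the adjusted p alone, 56 with DESeq2, 9 with the B cell marker covariate, 7 with sex and 11 to 27 with a sample left out (27 without WT sample 6). DESeq2 called 14 in GC B cells (8) and 16 in non-GC B cells (7), and all 8 groups in 1 fit gave 25 in the latter. For the genotype by population interaction in T cells (2) they were 1 without a normalization factor, 76 with DESeq2, 1 with limma voom and 0 to 6 with a sample left out, and in B cells (0) 6 with DESeq2, 5 with all 8 groups and 0 to 1. At the adjusted p alone 9262 genes and 6 members were called between Tfh and non-Tfh cells in WT, 9468 genes in S1PR4-/- mice, 9301 genes and 6 members between GC B and Tfh cells, and 7 members between non-GC B and non-Tfh cells. With a sample left out, members called ran from 2 to 4 (Tfh, WT), 3 to 4 (Tfh, S1PR4-/-), 1 to 3 (GC B against Tfh; 1 without WT GC B sample 3, and 1 without a normalization factor), 4 to 5 (non-GC B against non-Tfh) and 5 to 6 (interaction of lineages).

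Among the differences followed in this way, the signs that turned were those of differences near 0. Without a normalization factor, which moved the median of all genes by -0.12 for GC B against non-GC B cells in S1PR4-/- mice and by -0.14 for WT non-GC B against non-Tfh cells, log2 values were -0.067 (Slc3a2, genotypes in GC B), -0.037 and -0.073 (Slc3a2, Tfh, WT and S1PR4-/-), -0.070 (Slc7a6, Tfh, S1PR4-/-), -0.15, -0.05 and -0.011 (Slc3a2, Slc38a1 and Slc38a2, GC B, S1PR4-/-), -0.0037 (Slc1a4, GC B against Tfh) and -0.024 (Slc7a1, non-GC B against non-Tfh). Slc3a2 between genotypes in GC B cells was -0.10 with limma voom, -0.15 with the T cell marker covariate and -0.042 with sex, and Slc7a5 was -0.012 with the T cell marker covariate. Slc3a2 in GC B against non-GC B cells of S1PR4-/- mice was -0.087 with limma voom, -0.051 with all 8 groups and, chosen after seeing the data, -0.39 without the samples richest in plasma markers. With all 8 groups, Slc3a2 and Slc7a6 in S1PR4-/- Tfh cells were -0.010 and -0.0042, and Slc7a6 in WT Tfh cells was 0.0088 with RLE factors and 0.0089 with DESeq2. With a sample left out, Slc3a2 ran from -0.29 to 0.091 (genotypes, GC B), -0.030 to 0.049 (Tfh, WT), -0.037 to 0.030 (Tfh, S1PR4-/-) and -0.28 to 0.10 (GC B, S1PR4-/-), Slc7a6 from -0.050 to 0.045 and -0.027 to 0.044 (Tfh, WT and S1PR4-/-), Slc7a5 from -0.033 to 0.20 (Tfh, S1PR4-/-), Slc1a4 from -0.034 to 0.18 (GC B against Tfh) and the chain ratio between genotypes in non-GC B cells from -0.0502 to 0.00879 (the latter without S1PR4-/- sample 1). The ratio from Slc7a5 alone differed by 0.551 between WT GC B and non-GC B cells (0.732 from 6 light chains).

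Whether the replicate numbers pair the samples is not settled. By Xist and Ddx3y, sex matched between same-numbered Tfh and non-Tfh samples in 6 of 6 WT and 6 of 6 S1PR4-/- pairs, but their deviations from the group means correlated at over 0.1 in 2 and 3 of the 6 pairs (mean r of 0.10 and 0.114, with 4 and 6 of 6 samples best with their own number). Between GC B and non-GC B samples it matched in 4 of 5 WT and 1 of 4 S1PR4-/- pairs (mean r of 0.060 and -0.015). With a block of the number, 3 members were called in GC B cells of S1PR4-/- mice (Slc1a4 and Slc43a1 not, at adjusted p of 0.0634 and 0.0629), Slc1a4 passed in S1PR4-/- Tfh cells (0.89 ± 0.28, adjusted p = 0.0167), and Slc1a5 and Slc38a2 passed in the interaction of lineages (adjusted p = 0.0463 and 0.0401). The genotype by population interaction in T cells gave 10 genes, and Slc3a2 between genotypes in GC B cells was -0.11. Cells of day 6 and day 9, or of WT and S1PR4-/- mice, cannot come from 1 mouse. In both kinds of interaction and between genotypes the block therefore joined samples of different mice, and its values there do not show the effect of pairing.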
